A study of Mus musculus with 15 samples.

Results

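The 49 genes described here copy the genome and supply the nucleotides for it: 10 subunits and cofactors of the replicative helicase, 5 genes of origin licensing, 6 of the sliding clamp and its loader, 3 subunits of the single-strand binding protein RPA, 5 of DNA polymerases and primase, 2 that finish Okazaki fragments, 6 of deoxynucleotide supply, 2 of pyrimidine and 4 of purine base synthesis, 4 regulators of entry into S phase and 2 of the maintenance of DNA methylation. They are listed by name for their textbook roles. Of the 49, 48 have a probe set annotated to them alone, out of 18193 such genes on the array. Impdh2 has none. Transcripts of laser-microdissected mouse lung were measured on 15 Affymetrix arrays, 5 in each of 3 groups, and every value below is a scanner signal on a linear scale on which each array averages 500 after trimming. The first group was dysplasia from SP-C/c-raf mice, which express the c-raf-1 kinase in respiratory epithelium under the surfactant protein C promoter. The second was transgenic unaltered lung, cut from the same dysplasia-bearing animals. The third was lung of non-transgenic littermates, which lack the transgene. All mice came from a line bred on a C57BL/6 and DBA/2 hybrid background and then kept on C57BL/6 for at least 5 generations. The transgenic mice were 5 to 7 months old and the non-transgenic mice 7 to 10 months, so age is not separated from genotype. The promoter restricts the transgene to cells that use it, and an array holds RNA pooled from 1 animal's sections and amplified before labelling.

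DNA is copied once in each cell cycle. In G1 the origin recognition complex, Cdc6 and Cdt1 load the ring of Mcm2 to Mcm7 onto origins, and in S phase Cdc45 and the GINS complex turn that ring into a running helicase. Primase and the polymerases then build the strands behind it, the clamp PCNA holds the polymerases on DNA, and ribonucleotide reductase, thymidine kinase and dUTPase keep the deoxynucleotide pools filled and free of uracil. Many of these genes are known targets of E2F factors and are transcribed mainly in dividing cells, which are few in resting adult lung.

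The labels were compared with marker genes first. Summed signal of 7 general epithelial markers was 52132 to 64518 on dysplasia arrays, against 21583 to 23730 on transgenic unaltered and 16408 to 20473 on non-transgenic arrays. Summed signal of 11 endothelial markers was 16643 to 25209 on dysplasia arrays, against 45221 to 60045 on transgenic unaltered and 50658 to 64500 on non-transgenic arrays. By the fit described below, 6 of 7 epithelial markers were called higher in dysplasia than in transgenic unaltered lung and all 11 endothelial markers lower, while 0 of 7 alveolar type 2 markers were called, whose summed signal was 109950 to 185905 in dysplasia, against 105324 to 176089 in transgenic unaltered and 96721 to 130629 in non-transgenic lung. Of the remaining lists, 4 of 8 fibroblast, 5 of 7 macrophage, 4 of 4 B cell, 3 of 3 neutrophil and 2 of 2 red cell markers were called lower there, 1 macrophage marker higher, and 0 of 5 T cell markers were called. Against non-transgenic lung 2 macrophage markers were called higher in dysplasia and 2 lower, and 2 of 7 alveolar type 2 markers higher. The unaltered tissues differed too. In transgenic unaltered lung 3 of 7 epithelial and 3 of 7 macrophage markers were called higher than in non-transgenic lung, beside 1.17% of all probe sets. The ratio of 5′ to 3′ actin signal, a measure of RNA length, was 25.1% to 75.2% in dysplasia, 12.5% to 63.4% in transgenic unaltered and 14.1% to 72.8% in non-transgenic lung. Xist was above 1000 on 2 dysplasia, 1 transgenic unaltered and 4 non-transgenic arrays, so the sexes were not balanced. Dysplasia array 4 carried Xist and Y-linked transcripts together, and a further label of transgenic unaltered array 2 calls it tumor. In such samples more cells of a dividing type and more RNA per cell cannot be told apart.

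Of the 48 genes with a probe set, 45 had a mean signal above 100 over the 15 arrays and were tested. Cdc45, a helicase cofactor, averaged 91.5 ± 28.2 in dysplasia, 77.3 ± 15.7 in transgenic unaltered and 75.5 ± 17.2 in non-transgenic lung. Orc1, the largest subunit of the origin recognition complex, averaged 52.6 ± 28.2 in dysplasia, 77.4 ± 20.4 in transgenic unaltered and 108 ± 27.2 in non-transgenic lung (SD, n = 5 for this and every other mean). Tyms, thymidylate synthase, read at most 31.8 on the 15 arrays. These 3 genes were below the limit and were not tested. Cdc6, Pole and Ccne2 passed the limit only because dysplasia was included, with means of 81.7, 92.1 and 95.5 over the 10 arrays of unaltered tissue. With the limit set on unaltered tissue alone, a setting chosen after seeing the data, 42 members were tested, of which 24 were called higher than in transgenic unaltered and 30 higher than in non-transgenic lung.

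In dysplasia 26 of the 45 tested genes were called higher than in transgenic unaltered lung and 1, E2f1, lower, while 18 received no call (limma on log2 of the signal plus 50, Benjamini-Hochberg adjusted p under 0.05 over all 21658 tested probe sets). That is 57.8% called higher, against 15.3% of all tested probe sets called higher and 17.9% called lower. Each member is measured by its gene's brightest probe set. Over the brightest tested probe sets of all 11603 genes, 18.6% were called higher and 21% lower. Against non-transgenic lung those shares were 24.7% and 26%. The median log2 difference was 0.40 over the 45 genes and -0.01 over all probe sets. Against non-transgenic lung 33 were called higher, 0 lower and 12 not, or 73.3%, beside 20.7% of all probe sets higher and 23.3% lower, with a median difference of 0.50 and -0.03 over all probe sets. At an unadjusted p under 0.05 the count of lower genes was also 0, beside 26.9% of all probe sets. Both comparisons use the same dysplasia arrays. At the stricter thresholds of the study's methods, an adjusted p of at most 0.001 with a ratio of at least 2, only Tk1 passed against transgenic unaltered lung, where 3.1% of all probe sets passed upward. Tk1, Uhrf1, Gins2 and Rfc5 passed against non-transgenic lung, where 4.9% did. All 5 dysplasia arrays lay above all 5 transgenic unaltered arrays in 17 genes (11.8% of all probe sets), and above all 5 non-transgenic arrays in 26 (15.8%).

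**Figure D1:**
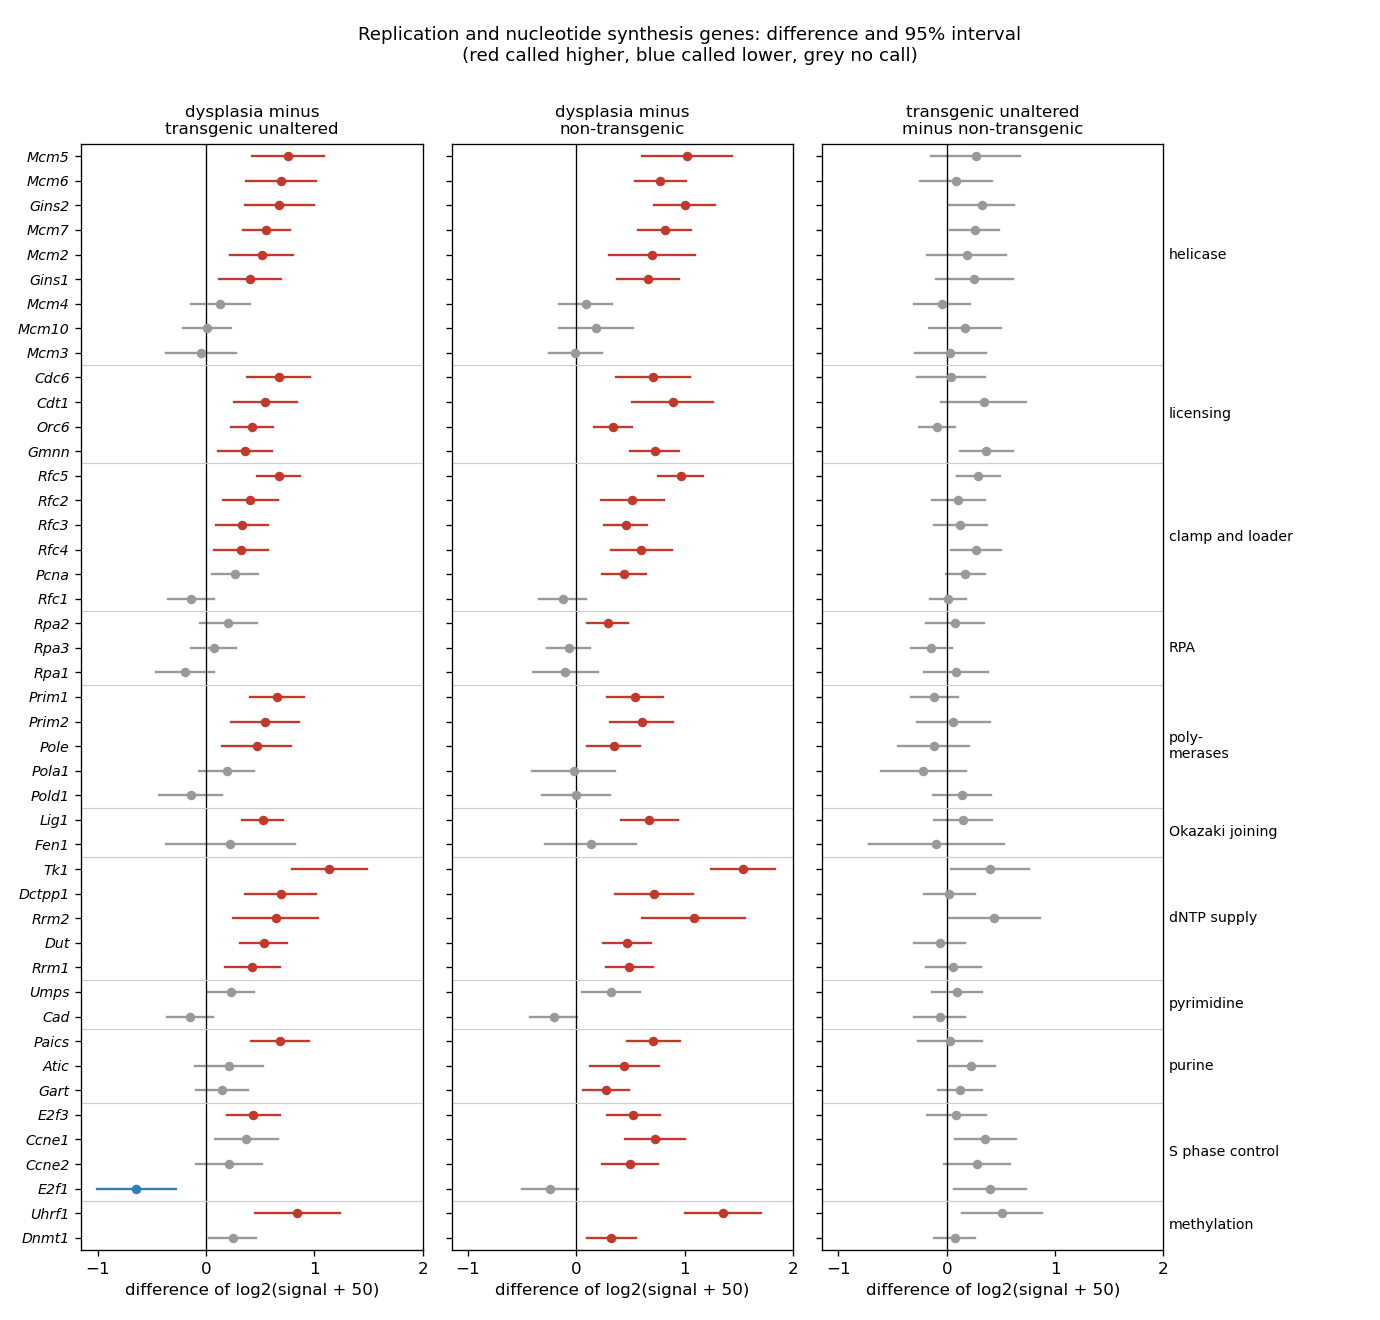
Difference of log2(signal + 50) with its 95% interval for the 45 tested genes, by role, in the 3 comparisons, with calls higher in red, calls lower in blue and genes without a call in grey. Calls fill most roles in both dysplasia comparisons, 26 and 33 genes higher, and the right panel holds 0 calls.

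Among the helicase genes 6 of 9 tested were called higher against each unaltered tissue. Mcm5, a ring subunit, read 1722, 1568, 2392, 2122 and 2269 on dysplasia arrays 1 to 5, against 848, 1226, 1295, 1176 and 1299 on transgenic unaltered and 722, 769.7, 907, 1060.4 and 1458 on non-transgenic arrays. No dysplasia array fell within either other group. Its log2 difference was 0.76 (SE 0.15, adjusted p = 0.00249) against transgenic unaltered and 1.02 (SE 0.19, adjusted p = 0.00109) against non-transgenic lung. Where a gene has a pair of differences below, they stand in this order, on the log2 scale, and a bare value in parentheses is the adjusted p. Mcm6 read 1432, 1469, 1734, 1548 and 1378 in dysplasia, against 642, 1033, 1117, 1056 and 812 in transgenic unaltered and 698, 845, 923, 873 and 982 in non-transgenic lung, again without overlap, with differences of 0.69 (adjusted p = 0.00354) and 0.78 (0.00012). Mcm7 read 3366, 2728, 3507, 3255 and 3527 in dysplasia, against 2464, 2007, 2242, 2058 and 2255 in transgenic unaltered and 1687, 1581, 1756, 2057 and 2144 in non-transgenic lung, and differed by 0.56 (0.0012) and 0.82 (0.000131). A second probe set of Mcm6 gave smaller differences without a call, 0.37 (0.214) and 0.34 (0.14), and a second probe set of Mcm7 gave 0.36 (0.0925) against non-transgenic lung. Transgenic unaltered array 1 was the lowest of its group in Mcm5 and Mcm6 but the highest in Mcm7. Mcm2 averaged 764 ± 133 in dysplasia, against 516 ± 67.3 in transgenic unaltered and 459 ± 142 in non-transgenic lung, and was called in both comparisons (0.51, adjusted p = 0.0105, and 0.70, 0.00853) with groups that overlap.

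The other ring subunits gave no call. Mcm3 read 691, 867, 902, 932 and 795 in dysplasia, against 584, 985, 885, 1029 and 897 in transgenic unaltered and 797, 822, 741, 831 and 1031 in non-transgenic lung. The 3 groups overlap almost wholly, with differences of -0.04 (95% interval -0.37 to 0.28) and -0.01 (95% interval -0.26 to 0.23). Mcm4 averaged 1247 ± 158 in dysplasia, against 1135 ± 154 in transgenic unaltered and 1170.3 ± 125 in non-transgenic lung, with differences of 0.13 (95% interval -0.14 to 0.40) and 0.09 (95% interval -0.16 to 0.33). Mcm3 was singled out after its values were seen, and its difference was not tested against that of the other subunits. By the probe sets used, the upper limits for Mcm3 and Mcm4 lie below the estimates for Mcm5, Mcm6 and Mcm7 in the same comparison. This leaves aside the intervals of those estimates and is no test. The second probe set of Mcm6, at 0.37 and 0.34, lay close to the upper limits of Mcm4. Mcm10, which helps to start the helicase, averaged 119 ± 16.9 in dysplasia, against 118 ± 15.2 in transgenic unaltered and 102 ± 33.1 in non-transgenic lung, close to the signal limit, and was not called. Among the GINS subunits, Gins2 read 230.3, 307, 356, 270.0 and 337 in dysplasia, against 188, 205, 142, 194 and 119 in transgenic unaltered and 103, 112, 108, 143 and 157 in non-transgenic lung, with differences of 0.68 (adjusted p = 0.0037) and 1.0 (8.02e-05). Gins1 read 184, 216, 222, 229 and 202 in dysplasia, against 127, 203, 173, 138 and 106 in transgenic unaltered and 119, 89.3, 112, 173 and 92.4 in non-transgenic lung, and differed by 0.40 (0.0343) and 0.66 (0.00154). Dysplasia overlapped transgenic unaltered lung in Gins1, where array 2 read 203, and did not overlap non-transgenic lung in either gene. The Gins1 call against transgenic unaltered lung was lost in 10 of the settings tried, among them the omission of any 1 of dysplasia arrays 2 to 5 or of transgenic unaltered arrays 1, 4 or 5 (adjusted p = 0.0548 to 0.0766).

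The promoters of 4 genes are shown, 3 that hold a word of the E2F consensus and the gene with the largest change, Tk1, which holds none. Each is the 250 bases before the annotated start, 5′ to 3′ on the coding strand (RefSeq, mouse GRCm38.p6), with E2F words in capitals. The words searched on both strands were TTTCCCGC, TTTCGCGC, TTTGCCGC and TTTGGCGC.
Mcm5, chr8:75109259-75109508, plus strand: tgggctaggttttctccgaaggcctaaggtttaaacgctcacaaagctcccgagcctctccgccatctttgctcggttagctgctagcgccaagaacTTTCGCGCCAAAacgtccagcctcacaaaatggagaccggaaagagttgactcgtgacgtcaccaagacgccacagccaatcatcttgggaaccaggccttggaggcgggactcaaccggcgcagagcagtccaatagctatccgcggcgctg
Mcm6, chr1:128359706-128359955, minus strand: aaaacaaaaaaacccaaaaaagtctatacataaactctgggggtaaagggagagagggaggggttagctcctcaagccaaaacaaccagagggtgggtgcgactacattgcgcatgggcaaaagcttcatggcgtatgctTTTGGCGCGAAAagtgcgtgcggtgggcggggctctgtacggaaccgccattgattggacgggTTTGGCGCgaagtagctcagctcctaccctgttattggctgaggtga
Cdc6, chr11:98907901-98908150, plus strand: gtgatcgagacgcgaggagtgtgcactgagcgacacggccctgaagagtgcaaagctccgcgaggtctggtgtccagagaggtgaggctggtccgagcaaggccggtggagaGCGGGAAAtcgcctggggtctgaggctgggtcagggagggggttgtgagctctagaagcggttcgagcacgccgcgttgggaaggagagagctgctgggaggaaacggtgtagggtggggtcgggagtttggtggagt
Tk1, chr11:117826015-117826264, minus strand: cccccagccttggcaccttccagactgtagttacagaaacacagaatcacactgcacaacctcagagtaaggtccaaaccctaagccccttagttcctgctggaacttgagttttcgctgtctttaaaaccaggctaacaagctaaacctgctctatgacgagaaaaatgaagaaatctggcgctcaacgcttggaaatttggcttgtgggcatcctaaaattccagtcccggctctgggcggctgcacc
In Mcm5 TTTCGCGC and TTTGGCGC lie on opposite strands and share 4 bases, starting 153 and 149 bases before the start. Mcm6 has the same arrangement at 110 and 106 bases and a further TTTGGCGC at 47 bases before the start, and Cdc6 has 1 word at 138 bases. Mcm3, which was not called, holds words at 19 and 38 bases after its start. In the table of promoters that run from 250 bases before to 50 bases after each start, 41 of the 49 genes were found, and 14 of them (34.1%, Wilson 95% interval 21.6% to 49.5%) held an E2F word, against 2.6% of 27025 genes and 4.67% of the 9382 genes of the table with a tested probe set. A CCAAT box (letters CCAAT) stood in 65.9% of members and 42.1% of tested genes, a GC box (GGGCGG) in 80.5% of members and 68.9% of tested genes, and an E-box (CACGTG) in 9 of the 41 members and 11.6% of tested genes, on either strand. Each set was counted by itself, so words of different sets may overlap. Median log2 difference between dysplasia and transgenic unaltered lung was 0.52 for the 13 tested genes with an E2F word, of which 9 were called higher, and 0.30 for the 24 without, of which 11 were called higher and 1 lower. These are matches of letters in a window and say nothing of binding.

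All 4 tested licensing genes were called higher in dysplasia than in both unaltered tissues. Among them Cdc6 passed the signal limit only because dysplasia was included. Orc1, which fell below that limit and was not tested, averaged lower in dysplasia than in either tissue. Cdc6, the loader of the helicase ring, read 215, 142, 134, 187 and 136 in dysplasia, against 66.4, 102, 99.4, 73.4 and 73.5 in transgenic unaltered and 111, 68.8, 49.4, 101 and 72.4 in non-transgenic lung, without overlap, and differed by 0.67 (adjusted p = 0.00236) and 0.71 (0.00328). Cdt1, its partner in loading, read 1857, 1806, 2314, 2201 and 2404 in dysplasia, against 1107, 1322, 1493, 1586 and 1675 in transgenic unaltered and 1031, 874, 880.2, 1364 and 1570.4 in non-transgenic lung, and differed by 0.55 (0.00731) and 0.89 (0.00135). Geminin (Gmnn), which holds Cdt1 inactive after S phase has begun, read 563, 642, 696, 746 and 678 in dysplasia, against 478, 556, 585, 526 and 406 in transgenic unaltered and 360.0, 352, 343, 451 and 410.1 in non-transgenic lung. Gmnn differed by 0.36 (0.0309) and 0.72 (0.000165), with dysplasia array 1 inside the transgenic unaltered range. Its call against transgenic unaltered lung was lost in 7 settings, among them the omission of any 1 of dysplasia arrays 3, 4 or 5 or of transgenic unaltered arrays 1, 4 or 5 (adjusted p = 0.0542 to 0.072). Orc6, a small subunit of the origin recognition complex, averaged 716 ± 58.0 in dysplasia, against 519 ± 35.1 in transgenic unaltered and 555 ± 23.5 in non-transgenic lung, with differences of 0.43 (0.00286) and 0.34 (0.00563).

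**Figure D2:**
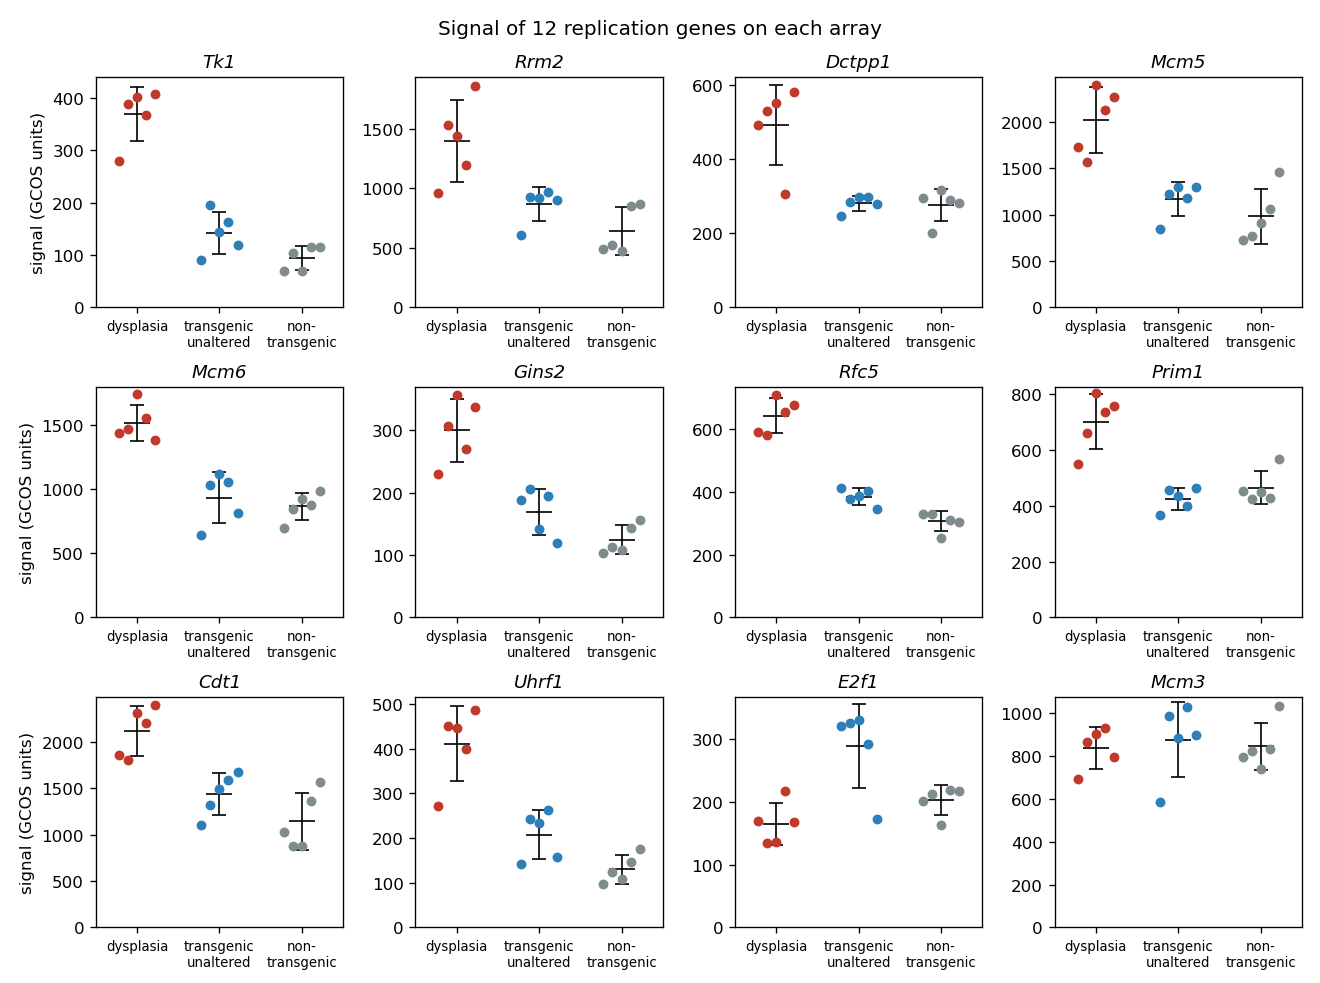
Signal of 12 members on each of the 15 arrays (points, ordered by array number), with the group mean and SD in black. In 9 of the 12 panels all dysplasia arrays lie above all transgenic unaltered arrays, while Rrm2 overlaps at dysplasia array 1, E2f1 is lower in dysplasia and Mcm3 does not separate. The panels are a selection, and of all 45 tested members 17 separate in this way.

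Of the clamp and its loader 4 of 6 were called higher against transgenic unaltered and 5 of 6 against non-transgenic lung. Rfc5, a small subunit of the loader that opens PCNA, read 592, 583, 711, 657 and 678 in dysplasia, against 413, 378, 389, 403 and 346 in transgenic unaltered and 332, 330.4, 254, 312 and 304 in non-transgenic lung. The 3 groups do not overlap at all in Rfc5. The difference was 0.67 (SE 0.09, adjusted p = 0.000161) against transgenic unaltered and 0.96 (SE 0.09, adjusted p = 1.14e-05) against non-transgenic lung. Rfc4, another loader subunit, read 270.4, 302, 383, 363 and 403 in dysplasia, against 229, 280.3, 253, 282 and 267 in transgenic unaltered and 226, 177, 182, 202 and 266 in non-transgenic lung. Rfc2 read 638, 722, 908, 901 and 691 in dysplasia, against 595, 641, 552, 516 and 519.5 in transgenic unaltered and 505, 414, 503, 622 and 573 in non-transgenic lung, and Rfc3 read 154, 180.4, 164, 175 and 147 in dysplasia, against 96.7, 159, 133, 108 and 108 in transgenic unaltered and 106, 116, 106, 118 and 83.9 in non-transgenic lung. These 3 overlapped transgenic unaltered lung and did not overlap non-transgenic lung, with differences of 0.33 (0.045), 0.41 (0.0188) and 0.33 (0.0383) for Rfc4, Rfc2 and Rfc3 in the first comparison and 0.60 (0.00288), 0.52 (0.00776) and 0.46 (0.00169) in the second. The first-comparison calls of Rfc4 and Rfc3 were each lost in 12 of the settings tried. Leaving out any 1 of dysplasia arrays 3 to 5 or any transgenic unaltered array ended that of Rfc4 (adjusted p = 0.0573 to 0.106), and leaving out any 1 of dysplasia arrays 1 to 4 or of transgenic unaltered arrays 1, 4 or 5 that of Rfc3 (adjusted p = 0.0508 to 0.0916). The Rfc2 call rests on its brightest probe set, since its other 2 gave -0.03 and 0.15 against transgenic unaltered lung with no call, and it was lost without transgenic unaltered array 4 (adjusted p = 0.0509). Rfc1, the large subunit of the loader, averaged 811 ± 99.1 in dysplasia, against 894 ± 43.0 in transgenic unaltered and 886 ± 55.0 in non-transgenic lung, with differences of -0.14 (95% interval -0.35 to 0.07) and -0.13 (95% interval -0.34 to 0.09). Pcna, the clamp itself, averaged 5420.1 ± 565 in dysplasia, against 4492 ± 323 in transgenic unaltered and 3975 ± 235 in non-transgenic lung. It missed the threshold in the first comparison (log2 difference 0.27, adjusted p = 0.0563, and adjusted p = 0.021 when arrays were blocked by number) and was called in the second (0.44, 0.00247).

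RPA covers single-stranded DNA at the fork and in repair. Rpa1 averaged 3875 ± 499.6 in dysplasia, against 4424 ± 546 in transgenic unaltered and 4188 ± 768 in non-transgenic lung, and Rpa3 averaged 746 ± 65.8 in dysplasia, against 709 ± 62.0 in transgenic unaltered and 786 ± 60.5 in non-transgenic lung. Neither was called, but Rpa1 was called lower against transgenic unaltered lung (-0.19, adjusted p = 0.0449) when arrays were blocked by number. Rpa2 averaged 482 ± 28.9 in dysplasia, against 416 ± 76.6 in transgenic unaltered and 387 ± 34.5 in non-transgenic lung, and was called against non-transgenic lung alone (0.29, adjusted p = 0.0175). The difference of 0.21 against transgenic unaltered lung has a 95% interval of -0.06 to 0.47.

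Among the polymerases and primase 3 of 5 were called higher in both comparisons. Prim1, the catalytic subunit of primase, read 550.1, 661, 803, 737 and 759 in dysplasia, against 366, 457, 436, 400.2 and 463 in transgenic unaltered and 451, 425, 449, 429 and 567 in non-transgenic lung. Only non-transgenic array 5, at 567, lay within the dysplasia range, and the differences were 0.66 (adjusted p = 0.000968) and 0.54 (0.00293). A second probe set of Prim1 gave 0.32 (0.134) and 0.28 (0.139), with no call. Prim2, the regulatory subunit, read 340.3, 289.6, 334, 405 and 402 in dysplasia, against 217, 214, 295, 266 and 159.7 in transgenic unaltered and 168, 215, 187, 229 and 289 in non-transgenic lung, and differed by 0.54 (0.0125) and 0.60 (0.00335), while a second probe set gave 0.27 (0.164) and 0.22 (0.195). Pole, the catalytic subunit of the leading-strand polymerase, averaged 137 ± 19.2 in dysplasia, against 86.9 ± 26.3 in transgenic unaltered and 97.3 ± 18.1 in non-transgenic lung, and was called in both, by 0.47 (0.029) and 0.35 (0.0264), with overlapping groups. Each call of Pole was lost in 5 settings, among them, against transgenic unaltered lung without dysplasia arrays 3, 4 or 5 or transgenic unaltered array 4 (adjusted p = 0.0523 to 0.0682) and against non-transgenic lung without dysplasia arrays 3 or 5 or non-transgenic arrays 1 or 2 (adjusted p = 0.059 to 0.0653). Pold1 and Pola1, the catalytic subunits of the lagging-strand and priming polymerases, were not called. Pold1 averaged 497 ± 93.9 in dysplasia, against 548 ± 64.7 in transgenic unaltered and 497 ± 88.5 in non-transgenic lung, and Pola1, an X-linked gene, 367 ± 40.9 in dysplasia, against 316 ± 48.4 in transgenic unaltered and 385 ± 119 in non-transgenic lung. With the array number as a block Pola1 was called higher against transgenic unaltered lung (adjusted p = 0.0455).

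Lig1, the ligase that seals Okazaki fragments, read 692, 686, 685, 679 and 616 in dysplasia, against 470.1, 462, 406, 506 and 419.6 in transgenic unaltered and 292, 429.7, 395, 422 and 497 in non-transgenic lung. It did not overlap either tissue, with differences of 0.52 (adjusted p = 0.000662) and 0.67 (0.000775). Fen1, the nuclease that removes their flaps, averaged 1237 ± 267 in dysplasia, against 1102 ± 373 in transgenic unaltered and 1135 ± 273 in non-transgenic lung by its brightest probe set, which gave no call. Its second probe set was called higher in both comparisons, by 0.59 (adjusted p = 0.002) and 0.73 (7.45e-05), so the probe sets of Fen1 disagree.

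All 5 tested genes of deoxynucleotide supply were called higher in both comparisons, with median differences of 0.64 and 0.71, and Tk1 showed the largest difference of all members. Tk1, the thymidine kinase of dividing cells, read 280.0, 389, 402, 367 and 408 on dysplasia arrays 1 to 5, against 90.5, 196, 144, 163 and 118 on transgenic unaltered and 69.4, 104, 70.3, 115 and 115 on non-transgenic arrays. The lowest dysplasia array stood above the highest of both other groups. The differences were 1.14 (SE 0.16, adjusted p = 0.000199) and 1.54 (SE 0.14, adjusted p = 5.25e-06). Rrm2, the subunit of ribonucleotide reductase whose level follows S phase, read 959.6, 1532, 1441, 1195 and 1859.8 in dysplasia, against 612, 924, 923, 967 and 902 in transgenic unaltered and 493, 520.5, 471, 851 and 864 in non-transgenic lung, with differences of 0.64 (0.0161) and 1.08 (0.00176). A second probe set of Rrm2 gave 0.95 and 1.26, both called. Rrm1, the large subunit, read 824, 866, 985, 899.7 and 1035 in dysplasia, against 522, 741, 651, 769 and 692 in transgenic unaltered and 609.9, 638, 547, 682 and 735 in non-transgenic lung, with differences of 0.43 (0.0133) and 0.49 (0.0021). With the mean over its probe sets Rrm1 gave 0.24 (0.056) and 0.21 (0.0511), with no call.

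The enzymes that cleanse the pools followed the same direction. Dut, the dUTPase that keeps uracil out of DNA, read 701, 789.6, 826, 768 and 858 in dysplasia, against 445, 576, 521, 593 and 519 in transgenic unaltered and 539, 488, 549, 689 and 526 in non-transgenic lung, and differed by 0.53 (adjusted p = 0.00144) and 0.47 (0.00302). With the mean over its probe sets Dut gave 0.27 (0.0907) and 0.14 (0.327), with no call. Dctpp1, which hydrolyses dCTP and its modified forms, read 492, 528, 549.9, 306 and 581 in dysplasia, against 245, 283, 296, 297 and 278 in transgenic unaltered and 295, 202, 316, 288 and 282 in non-transgenic lung. Dysplasia array 4, at 306, lay just above the transgenic unaltered range and inside the non-transgenic range, while the other 4 stood well above both. The Dctpp1 differences were 0.69 (0.00393) and 0.71 (0.00439).

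Base synthesis moved less evenly. Paics, which catalyses a pair of steps of purine synthesis, read 7697, 9171, 9628, 8803 and 8474 in dysplasia, against 4237, 5884, 6363, 5026 and 5895 in transgenic unaltered and 5023, 4244, 5739, 5910.5 and 5846 in non-transgenic lung, without overlap, and differed by 0.68 (adjusted p = 0.0012) and 0.71 (0.000349). A second probe set of Paics was called in both as well, at 0.70 and 0.93, and the third, at 0.54 and 0.23, in neither. Atic and Gart, enzymes of the same pathway, were called against non-transgenic lung only, at 0.44 (0.0284) and 0.27 (0.0417), and gave 0.21 (0.292) and 0.15 (0.356) against transgenic unaltered lung. The Gart call was lost in 11 settings, among them the omission of any 1 of dysplasia arrays 1, 3 or 4 or of non-transgenic arrays 1, 2, 3 or 5 (adjusted p = 0.0631 to 0.1). The Atic call was lost in 6, among them the omission of dysplasia arrays 1 or 5 or of non-transgenic arrays 1 or 3 (adjusted p = 0.0526 to 0.0697). The pyrimidine enzymes were not called. Cad, which starts pyrimidine synthesis, averaged 427 ± 32.1 in dysplasia, against 479 ± 53.6 in transgenic unaltered and 504 ± 65.4 in non-transgenic lung, and Umps, which completes UMP, averaged 359 ± 50.1 in dysplasia, against 298 ± 17.8 in transgenic unaltered and 279 ± 47.6 in non-transgenic lung. Umps lay close to the threshold against non-transgenic lung (0.32, adjusted p = 0.054), and Cad had negative estimates of -0.15 and -0.21.

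Regulators of S phase entry diverged. E2f1, an activator of replication genes, read 169, 135, 137, 217 and 168 in dysplasia, against 321, 326, 331, 293 and 173 in transgenic unaltered and 201, 213, 163, 219 and 218 in non-transgenic lung. It was singled out after its values were seen, as the 1 member called lower, and transgenic unaltered array 5 alone lay in the dysplasia range. The difference was -0.64 (SE 0.16, adjusted p = 0.0106) against transgenic unaltered lung and -0.24 (0.125) against non-transgenic lung, and a second probe set gave -0.51 (adjusted p = 0.00196) and -0.29 (0.051). E2f3, an activator of the same family, read 381, 453, 362, 361 and 403 in dysplasia, against 225, 308, 243, 282 and 331 in transgenic unaltered and 193, 285, 279, 245 and 289 in non-transgenic lung, and was called higher, by 0.44 (0.0102) and 0.53 (0.00261). With the mean over its probe sets E2f3 gave 0.21 (0.143) against transgenic unaltered lung, with no call. The cyclins E drive Cdk2 at the start of S phase. Ccne1 read 164, 166, 205, 246 and 208 in dysplasia, against 108, 186, 124, 149.5 and 143 in transgenic unaltered and 94.5, 99.8, 70.7, 108 and 125 in non-transgenic lung, and Ccne2 read 131, 172, 135, 127 and 106 in dysplasia, against 90.1, 154, 116, 114 and 76.6 in transgenic unaltered and 97.4, 78.9, 70.8, 59.6 and 97.1 in non-transgenic lung. Both were called against non-transgenic lung, at 0.73 (0.000654) and 0.50 (0.00568). Against transgenic unaltered lung they gave 0.37 (0.0506) and 0.21 (0.288), and both were called there when arrays were blocked by number (adjusted p = 0.023 and 0.0442).

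Uhrf1, which reads hemimethylated DNA behind the fork and recruits Dnmt1, read 272, 451, 447, 399 and 486 in dysplasia, against 142, 243, 234, 262 and 157 in transgenic unaltered and 96.4, 123, 108, 147 and 175 in non-transgenic lung. Dysplasia lay above both tissues on every array, with differences of 0.84 (SE 0.18, adjusted p = 0.00348) and 1.35 (SE 0.16, adjusted p = 4.61e-05). Dnmt1, the maintenance methyltransferase, averaged 1716 ± 191 in dysplasia, against 1432 ± 87.4 in transgenic unaltered and 1361 ± 124 in non-transgenic lung, and differed by 0.25 (0.0769, or 0.0227 when arrays were blocked by number) and 0.32 (0.0254). The second call was lost in 8 settings, besides the setting that turned its sign, among them the omission of any 1 of dysplasia arrays 3, 4 or 5 or of non-transgenic arrays 1, 2 or 3 (adjusted p = 0.0523 to 0.0648). Its 2 other probe sets gave 0.09 in the first comparison and 0.16 and -0.05 in the second, with no call.

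Between transgenic unaltered and non-transgenic lung none of the 45 members was called in either direction, where 1.17% of all probe sets were called higher and 0.0831% lower. At an unadjusted p under 0.05 there were 11 higher and 0 lower members, beside 7.44% and 4.68% of all probe sets. The median difference was 0.11, and 36 of 45 estimates were positive. The lowest unadjusted p belonged to Rfc5 (0.29, adjusted p = 0.174), the 1 member whose arrays did not overlap (3.23% of all probe sets were higher in this way), and to Gmnn (0.37, 0.178). Uhrf1 had the largest difference, 0.51 (95% interval 0.14 to 0.88, adjusted p = 0.212). This comparison shares its arrays with the previous ones, so the direction of these estimates is not separate evidence.

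**Figure D3:**
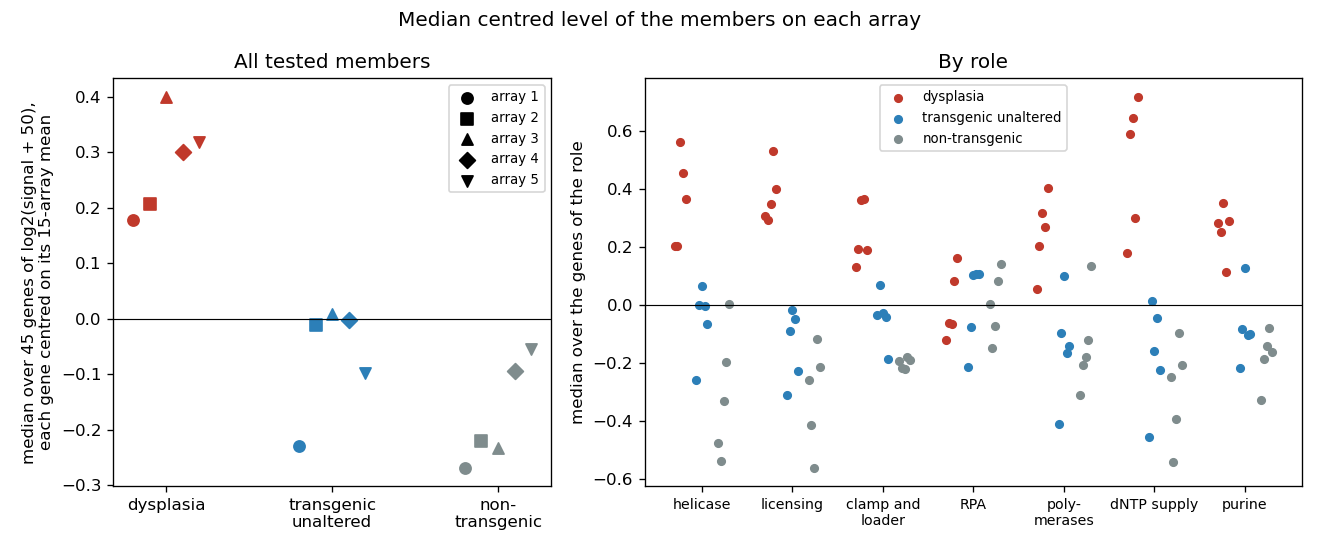
Median over the members of log2(signal + 50), each gene centred on its mean over 15 arrays, for all 45 tested members (left, symbols mark the array number) and for 7 roles (right). Dysplasia arrays lie between 0.18 and 0.40, above all other arrays, and RPA does not separate the groups.

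Taken array by array, the median of the 45 centred log2 signals was 0.18 to 0.40 in dysplasia, against -0.23 to 0.01 in transgenic unaltered and -0.27 to -0.05 in non-transgenic lung. Dysplasia array 1 was the lowest of its group in 22 members and transgenic unaltered array 1 in 25, and non-transgenic array 1 in 16 of 45. Non-transgenic array 5 was the highest of its group in 22. Without dysplasia array 4 and transgenic unaltered array 2 together, 22 members were called higher and 1 lower against transgenic unaltered lung, and 31 higher and 1 lower, E2f1, against non-transgenic lung. With Xist signal as a covariate the counts of higher members were 23 and 31, and with the actin ratio 26 and 34. Epithelial markers were higher and endothelial markers lower on the same dysplasia arrays, and their part in these differences was not tested.

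The members were measured by 31 other tested probe sets of 23 genes. In the comparison with transgenic unaltered lung 27 of the 31 had the same sign as the probe set used. Of the 17 that belong to called members, 10 gave the same call, 7 none and 0 the opposite. Against non-transgenic lung 25 of 31 had the same sign, and of 20 belonging to called members 8 gave the same call, 12 none and 0 the opposite. Of the probe sets used, 5 end in _s_at and 5 in _x_at, names that the manufacturer gives where probes can match related transcripts. The _x_at probe sets measure Mcm5, Pold1, Fen1, Rrm2 and Ccne1, so a share of their signal from related sequences is uncertain.

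Of 30 other tested replication factors, 3 were called higher and 2 lower in dysplasia than in transgenic unaltered lung, with a median of 0.14. That is 10% higher and 6.67% lower, beside 15.3% and 17.9% of all tested probe sets. These factors were thus called no more often than probe sets at large. Dbf4, the activator of the kinase that fires origins, averaged 730.2 ± 54.2 in dysplasia, against 430.1 ± 47.5 in transgenic unaltered lung (log2 difference 0.70, adjusted p = 0.000194), and Pole2, a subunit of the leading-strand polymerase, 337 ± 46.8 in dysplasia, against 189.7 ± 42.4 in transgenic unaltered lung (0.70, 0.00275). Rnaseh2a, a list gene named after its values were seen, was higher by 0.33 (0.0376). Pola2, the partner subunit of Pola1, was lower at 210.1 ± 49.8 in dysplasia, against 346 ± 65.3 in transgenic unaltered lung (-0.61, 0.00984), as was Timeless, a fork protection factor, at 604 ± 87.1 in dysplasia, against 833 ± 90.7 in transgenic unaltered lung (-0.44, 0.0123).

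Of 29 other tested nucleotide enzymes 12 were called higher and 4 lower than in transgenic unaltered lung, with a median of 0.26. The shares were 41.4% and 13.8%, beside 15.3% and 17.9% of all tested probe sets. Shmt1, which feeds one-carbon units to thymidylate and purines, averaged 865 ± 187 in dysplasia, against 248 ± 20.5 in transgenic unaltered lung (log2 difference 1.60, adjusted p = 1.04e-05), and Adss, on the branch to AMP, 4542 ± 519 in dysplasia, against 2251 ± 432 in transgenic unaltered lung (1.01, 0.000213). Impdh1, on the branch to GMP, fell to 633 ± 88.9 in dysplasia, against 2077 ± 276 in transgenic unaltered lung (-1.64, 4.91e-06). Samhd1, which degrades deoxynucleotides, fell to 1562 ± 167 in dysplasia, against 2753 ± 378 in transgenic unaltered lung (-0.79, 0.000313). Rrm2b, the reductase subunit of resting cells, was at 905 ± 72.2 in dysplasia, against 1282 ± 63.8 in transgenic unaltered lung (-0.48, 0.00107), and Mthfd1, which makes one-carbon folates, differed by -0.51 (0.0225). Rrm2 and Rrm2b thus took opposite directions in dysplasia. Rrm2b and Mthfd1 were in the list and were named after their values were seen. Shmt1 was the 1 gene of the other lists, cell type markers not counted, called between transgenic unaltered and non-transgenic lung (0.46, adjusted p = 0.047).

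Of 17 other genes of E2F and Rb control 4 were called higher and 2 lower against transgenic unaltered lung. The shares were 23.5% and 11.8%, beside 15.3% and 17.9% of all tested probe sets. Over the brightest probe set of each gene the shares were 18.6% and 21%. Ccna2, the cyclin of S and G2, averaged 839.6 ± 151 in dysplasia, against 399.8 ± 46.4 in transgenic unaltered lung (log2 difference 0.97, adjusted p = 0.000134), and Ccnd1, the G1 cyclin D1, 9907 ± 1756 in dysplasia, against 4533 ± 893 in transgenic unaltered lung (1.12, 0.000194). E2f8, a repressor of the family, and Cdk4, a partner kinase of the D cyclins, were higher by 0.74 and 0.48 and, though in the list, were named after their values were seen. Cdk6 was lower at 1096 ± 166 in dysplasia, against 1809 ± 199.5 in transgenic unaltered lung (-0.70, 0.00119), and E2f2, an activator like E2f1, at 565 ± 81.0 in dysplasia, against 811 ± 73.5 in transgenic unaltered lung (-0.49, 0.00581). Of the 3 activator E2F genes, E2f1 and E2f2 were thus lower and E2f3 higher in this comparison by the probe sets used. The E2f3 call was lost with the mean over its probe sets.

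Chromatin assembly genes, which package new DNA, included 5 of 11 called higher and 0 lower (median 0.34), among them Asf1a (0.46), Hat1 (0.42), Hells (0.57) and Nasp (0.39). Mitosis and proliferation genes showed 12 of 14 called higher and 0 lower, with a median of 0.90, beside 0.40 for the members. The shares called higher were 45.5% and 85.7%, beside 15.3% of all tested probe sets higher and 17.9% lower. Cdc20, an activator of the anaphase-promoting complex, averaged 3222 ± 603 in dysplasia, against 1049.6 ± 215 in transgenic unaltered lung (1.58, adjusted p = 4.3e-05), and Cdk1, the mitotic kinase, 557 ± 92.0 in dysplasia, against 201 ± 42.6 in transgenic unaltered lung (1.28, 6.55e-05). Ccnb2 and Birc5 were higher by 1.11 and 1.21. The difference between the medians of these lists was not tested. Against non-transgenic lung the counts were 6 higher and 3 lower of 30 replication factors, 13 and 4 of 29 nucleotide enzymes, 8 and 0 of 11 chromatin assembly genes, 5 and 4 of 17 E2F and Rb genes and 13 and 0 of 14 proliferation genes. Over all probe sets 20.7% were higher and 23.3% lower there, and over the brightest probe set of each gene 24.7% and 26%. The replication factors stood at 20% and 10%, and the E2F and Rb genes at 29.4% and 23.5%.

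**Figure D4:**
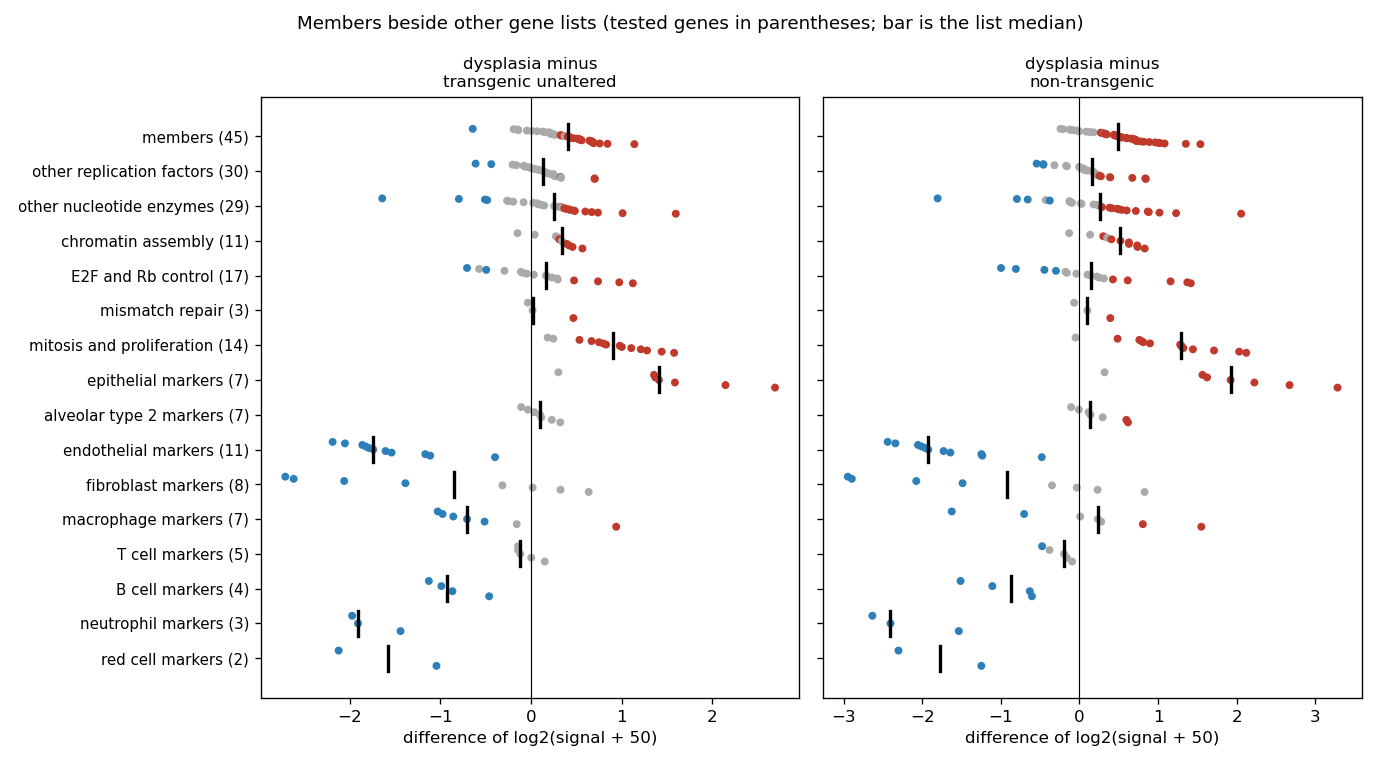
Difference of log2(signal + 50) for every tested gene of each list (points; red called higher, blue called lower, grey no call) with the list median as a bar, for dysplasia against each unaltered tissue. The members have medians of 0.40 and 0.50, between the other replication factors (0.14 and 0.16) and the proliferation genes (0.90 and 1.29), and endothelial markers lie below 0.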

How the data were processed

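Laser-microdissected lung of 15 samples in 3 groups was hybridised to Affymetrix Mouse Genome 430 2.0 arrays. The authors deposited 1 linear intensity (signal) per probe set, made in GCOS (version not given in the sources used here) and scaled to a target of 500. The trimmed mean was checked and was 500.0 on every array. Groups were taken from the sample titles.

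Signals were analysed as log2(signal + 50) for the 21658 of 45037 probe sets with a mean above 100 over the 15 arrays. Each comparison was fitted with limma 3.58.1 (R 4.3.3) on its own 10 arrays without pairing, in place of SAM, which the methods name and which is not installed here, and p-values were adjusted over all tested probe sets by Benjamini-Hochberg. The script was tested on simulated data. Each gene is represented by its brightest probe set annotated to it alone. Members and lists were chosen with earlier results of these data known, and their lists are described by counts and medians without a test. Values of every array are given for up to 25 members that were called with groups that do not overlap, largest difference first within a role, and of other lists up to 4 genes with the smallest p are named. Promoters were searched in Python 3.11.15 and figures drawn with matplotlib 3.10.9.

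Per the methods, dysplasia and transgenic unaltered tissue came from the same mice, but the methods do not say that an array number marks a mouse. The sex transcripts of these tissues match for numbers 1, 2, 3 and 5, and for number 4 they disagree. Dysplasia array 4 carried Xist and Y-linked transcripts and transgenic unaltered array 4 Y-linked transcripts without Xist, and its correlation was the lowest. Residuals of arrays with the same number correlated at 0.219 or more (mean 0.612) between dysplasia and transgenic unaltered tissue. They also correlated at 0.135 or more (mean 0.452) between transgenic unaltered and non-transgenic lung, which are different mice. Between dysplasia and non-transgenic lung, also different mice, the mean was 0.405 and the lowest -0.00366. Between dysplasia and transgenic unaltered tissue 10 of 10 arrays correlated best with the array of their own number. That held for 5 of 10 between dysplasia and non-transgenic lung, and 4 of 10 between the unaltered tissues. Since numbers of different mice correlated as well, the correlation by itself cannot show that a number marks a mouse. Numbers were used only as a block in an alternative fit. No label marks a batch, so none was tested, but array numbers shared traits across the groups. The actin ratio was highest on array 2 of dysplasia, transgenic unaltered and non-transgenic lung (75.2%, 63.4% and 72.8%). It was lowest on array 5 of each (25.1%, 12.5% and 14.1%). What the numbers share was not tested. The alternatives changed the offset, scaling, filter, fit, covariates, probe set and arrays. The number of arrays limits the precision.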

Additional observations from a re-analysis of the deposited data

Results flagged for a closer look

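Of 135 groups of 5 arrays (45 genes in 3 groups), 12 had an array whose gap to its nearest neighbour took up more than 0.71 of the range of the group. Chance gives such a gap in about 1 in 20 groups, and the groups share their arrays. In transgenic unaltered lung the lowest array stood apart in Fen1 (0.853), Rrm2 (0.847), Mcm4 (0.836), Mcm5 (0.765) and Mcm3 (0.731), each time array 1, and in E2f1 (0.801), array 5. In dysplasia the lowest array stood apart in Lig1 (0.84) and Dctpp1 (0.733), for Dctpp1 array 4. In non-transgenic lung the highest array stood apart in Prim1 (0.792) and Gart (0.775), and the lowest in Dctpp1 (0.735) and Rfc1 (0.711). Without transgenic unaltered array 1, Mcm5 and Rrm2 still passed the threshold against transgenic unaltered lung.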

How the results depend on the processing

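Of the 27 calls between dysplasia and transgenic unaltered lung 15 held in every setting in which the gene was tested, among them Tk1, Rfc5, Mcm5, Mcm6, Mcm7, Uhrf1 and E2f1, as did 22 of the 33 calls against non-transgenic lung. Dim genes such as Cdc6 and Gins2 were not tested under the stricter filters. With the replicate block 31 members were higher and 2 lower against transgenic unaltered lung, where 1 was lower without it, while 49.2% of all probe sets were called in either direction with the block, against 15.3% higher and 17.9% lower without it. The block changed no member's call in the comparisons with non-transgenic lung. With no filter on dim probe sets 1 member, Orc1, was lower against non-transgenic lung (log2 difference -0.65, adjusted p = 0.0259). In that setting 0 genes of the other lists, cell type markers not counted, were higher between transgenic unaltered and non-transgenic lung. Without dysplasia array 4 and transgenic unaltered array 2, a setting chosen after seeing the data, 1 member, E2f1, was lower against non-transgenic lung.

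Leaving out 1 array at a time gave 20 to 27 members higher and 1 to 1 lower against transgenic unaltered lung, the fewest without transgenic unaltered array 4. It gave 29 to 34 higher and 0 to 1 lower against non-transgenic lung, the fewest without non-transgenic array 1, and the 1 lower gene was E2f1 without dysplasia array 4 (-0.32, adjusted p = 0.0344). Between transgenic unaltered and non-transgenic lung it gave 0 to 1 higher, E2f1 without transgenic unaltered array 5 (0.55, adjusted p = 0.0262), and 0 to 0 lower.

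With the probe set of highest variance per gene 22 and 25 members were higher. Rfc2 then read -0.0312 against transgenic unaltered and -0.10 against non-transgenic lung, and Dnmt1 -0.0456 against non-transgenic lung, and the cause was not tested. With the mean over a gene's probe sets 23 and 26 were higher, and with quantile normalization 27 and 34. An E2F word stood in the last 150 bases of the promoter window in 24.4% of the 41 matched members and 1.45% of all genes. The share among tested genes was not counted for these bases. Over the whole window it was 4.67%, against 2.6% of all genes. Genes near a signal of 100, such as Mcm10, Pole and Cdc6, are the least precisely measured.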
